A study of Zea mays with 6 samples.

Results

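The benzoxazinoid pathway genes of maize were examined in RNA from the tips of coleoptiles, sheaths that cover the shoot of a germinating seedling. They were chosen by identifier as 10 genes: bx1, bx2, bx3, bx4, bx5, bx7, bx8, bx9, igl and glu1. Earlier results of these data were known when they were chosen. Of the 10 genes, 9 were found among the 39283 genes of the expression table, and bx7 (GRMZM2G441753) was not analysed here. The mutant group, labelled fdl1-Mu, had 3 samples of W22 tips mutated in FUSED LEAVES1 (FDL1, also ZmMYB94), a MYB transcription factor of cuticle formation. The methods speak of tips from homozygous and heterozygous plants carrying this transposon insertion, without saying which group held which. The labels add that the mutant tips looked normal. The wild-type group had 3 samples of W22 tips, and the methods do not state whether these were free of the insertion. All tips were 3 to 4 mm long and came from seedlings raised in a growth chamber at 28°C. They were collected 3 d after germination, with several tips in each sample. Each gene had 1 FPKM value per group (a transcript level corrected for transcript length and library size), which the authors pooled over the replicates. No spread between replicates therefore stands beside any value, no test was run, and the ratios between groups describe these libraries only.

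Benzoxazinoids are indole-derived defence compounds of grasses, abundant in young maize seedlings, where they act against insects, fungi and competing plants. The lyase BX1 releases indole from indole-3-glycerol phosphate, the branch point with tryptophan synthesis. The cytochrome P450 enzymes BX2, BX3, BX4 and BX5 then add oxygen in turn to give DIBOA, which the glucosyltransferases BX8 and BX9 convert into a stable glucoside. BX6 and BX7 modify the glucoside to that of DIMBOA, and β-glucosidases such as GLU1 release the active compound when tissue is damaged.

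In the group labelled fdl1-Mu, bx1 and the P450 genes had the larger ratios, and the glucosyltransferase genes lay closer to wild type. Genes were compared where Cuffdiff gave the status OK, both groups were above 0 and at least 1 group reached an FPKM of 1, which left 21361 genes and 7 of the 10 members. All 7 of these members had a higher FPKM in the group labelled fdl1-Mu, as did 52.3% of all genes compared. At least 1.5-fold higher were 4 of the 7, bx1, bx2, bx3 and bx4, and none was as much lower. Over all genes compared, 11.7% were at least 1.5-fold higher and 5.33% at least 1.5-fold lower. No member reached 2-fold, against 4.67% of all genes compared that were at least 2-fold higher. The median log2 ratio was 0.60 over the 7 members and 0.02 over all genes compared. The members that were not compared were bx7, igl, which stayed under an FPKM of 1 in both groups, and glu1, for which no mutant value was estimated.

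Ratios are also read against abundance, since low genes scatter more. All 7 members compared belonged to the 1267 genes that reached an FPKM of 100 in 1 group or both. The middle of these abundant genes, from the 5th to the 95th percentile, ran from 0.764-fold to 1.73-fold, and 9.47% of them were at least 1.5-fold higher. This range holds both differences between the groups and measurement error, and the pooled values do not separate them.

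**Figure D1:**
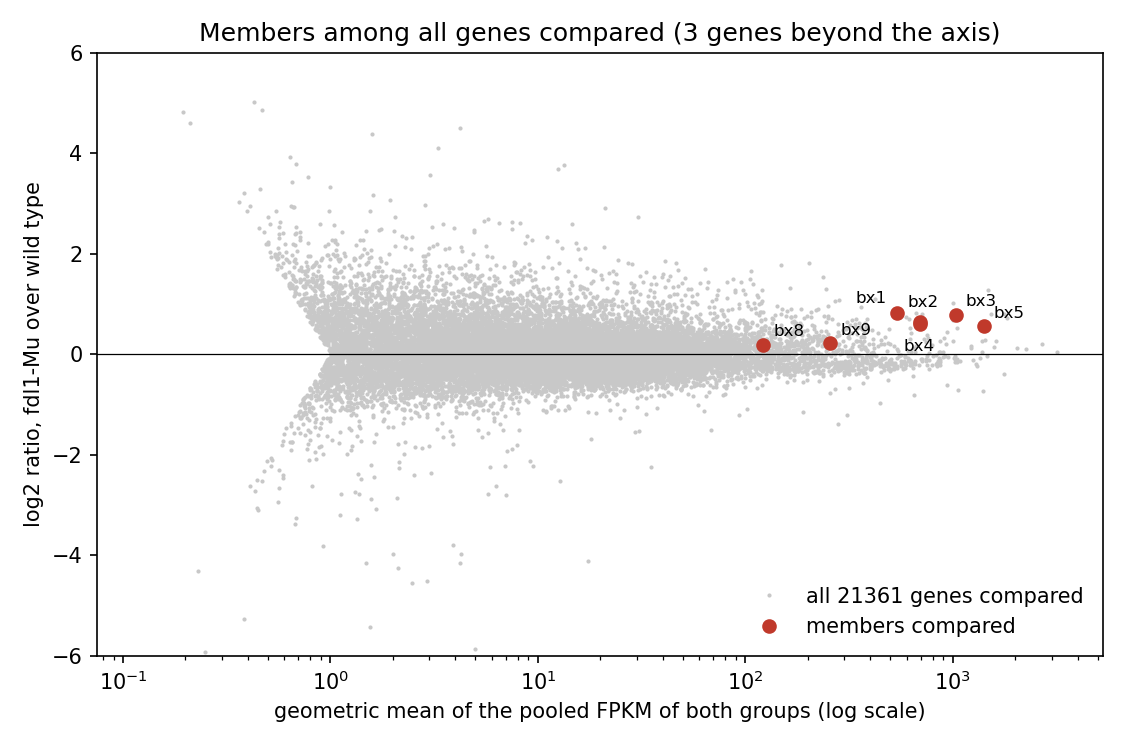
Log2 ratio of the group labelled fdl1-Mu over wild type (vertical axis) against the geometric mean of the pooled FPKM of both groups (horizontal axis, log scale) for the 21361 genes compared (grey) and 7 members (red). The 7 members lie at the abundant end and above 0, bx1 to bx5 higher than bx8 and bx9, and 3 other genes fall beyond the vertical axis.

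The gene for the first step, bx1 (GRMZM2G085381, chromosome 4 of B73v3, 3260762 to 3263006), stood at an FPKM of 716.3 in the group labelled fdl1-Mu and 404.8 in wild type. Its ratio of 1.77, or 0.82 on the log2 scale, was the highest of the 7 members compared. It exceeded 93.2% of all genes compared and 95.3% of the abundant ones. By FPKM, bx1 was the 76th most abundant gene in the group labelled fdl1-Mu and the 209th in wild type. The wild-type rank counts glu1, which has no mutant value, and was 208 among genes with status OK.

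Maize has a second lyase of this kind, IGL (GRMZM2G046191, chromosome 1, 288331936 to 288337173), known for making the volatile indole that leaves release after herbivore attack. The igl gene was barely expressed, at an FPKM of 0.532 in the group labelled fdl1-Mu and 0.524 in wild type. Its ratio of 1.02 was closest to 1 among the members with values in both groups, and its log2 ratio changed sign under rescaling to equal sums. Measured per length of transcript, bx1 was 1347-fold above igl in the group labelled fdl1-Mu and 773-fold above it in wild type. A neighbouring gene, GRMZM2G046163, lies 1283 bp beyond igl and also carries the name Igl in RefSeq. It was named after its values were seen, with an FPKM of 1.68 in the group labelled fdl1-Mu and 0.360 in wild type, a ratio of 4.68 between low values.

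The P450 genes were the most abundant of the members with values in both groups. The gene for the first P450 step, bx2 (GRMZM2G085661, chromosome 4, 3265213 to 3267368), stood at an FPKM of 872.8 in the group labelled fdl1-Mu and 555.5 in wild type, a ratio of 1.57. For the next step, bx3 (GRMZM2G167549, chromosome 4, 3003162 to 3005932) had 1357 in the group labelled fdl1-Mu and 785.7 in wild type. Its ratio of 1.73 came next to that of bx1.

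The third P450 gene, bx4 (GRMZM2G172491, chromosome 4, 3051215 to 3054036), stood at an FPKM of 858.7 in the group labelled fdl1-Mu and 566.1 in wild type. Its ratio of 1.52 lay just past the threshold of 1.5-fold and fell just short of it when ratios were centred on the median gene (1.495). The gene for the last P450 step, bx5 (GRMZM2G063756, chromosome 4, 3112925 to 3115501), had 1707 in the group labelled fdl1-Mu and 1161 in wild type, a ratio of 1.47, just under the threshold. These ratios sit too close to 1.5 for the threshold to set bx4 and bx5 apart. In absolute terms the differences were largest for bx3 and bx5, which stood 571.1 and 546.3 FPKM higher in the group labelled fdl1-Mu.

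Together, bx1 to bx5 summed to an FPKM of 5512 in the group labelled fdl1-Mu and 3473 in wild type, a 1.59-fold difference. They made up 0.808% of the summed FPKM of all genes with status OK in the group labelled fdl1-Mu and 0.524% in wild type. Their single ratios spanned 1.47 to 1.77 and did not follow the order of the steps, since bx1 and bx3 were highest and bx2, bx4 and bx5 lower. The order of their levels was nearly the same in both groups. In the group labelled fdl1-Mu it ran bx5, bx3, bx2, bx4 and bx1. In wild type bx4 and bx2 changed places, and these were the closest neighbours in the order, 1.02-fold apart in either group. From bx5 to bx1 the levels spanned 2.38-fold in the group labelled fdl1-Mu and 2.87-fold in wild type.

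**Figure D2:**
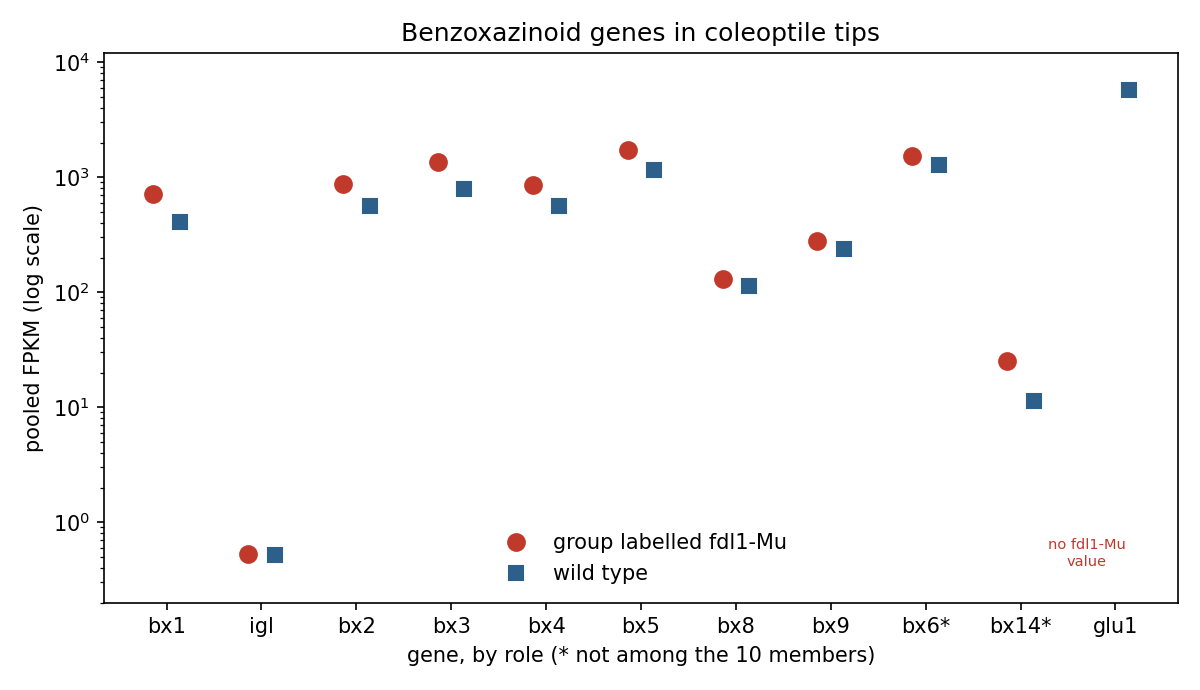
Pooled FPKM (log scale) of 9 members and of bx6 and bx14, ordered by role, in the group labelled fdl1-Mu (red circles) and in wild type (blue squares), 1 value per group and no error bars. The mutant value lies above that of wild type for bx1 to bx5, both values of igl lie near 0.5, and glu1 has a wild-type value only.

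The glucosyltransferase genes bx8 and bx9, whose products turn DIBOA into its glucoside, had lower levels and smaller ratios than the P450 genes. For bx8 (GRMZM2G085054, chromosome 4, 3214647 to 3216558), FPKM was 129.9 in the group labelled fdl1-Mu and 113.5 in wild type, a ratio of 1.15. For bx9 (GRMZM2G161335, chromosome 1, 180333582 to 180335486), it was 278.1 in the group labelled fdl1-Mu and 237.3 in wild type, a ratio of 1.17. These ratios exceeded 68.1% and 71.0% of all genes compared, where those of bx1 to bx5 exceeded between 87.5% and 93.2%. The more abundant bx9 stood 2.14-fold above bx8 in the group labelled fdl1-Mu and 2.09-fold above it in wild type. Because the ratios differed along the pathway, the distance between P450 and glucosyltransferase transcripts also differed, with bx5 at 13.1-fold the level of bx8 in the group labelled fdl1-Mu and 10.2-fold in wild type. Whether the ratios of bx8 and bx9 differ from those of bx1 to bx5 was not tested.

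The β-glucosidase gene glu1 (GRMZM2G016890, chromosome 10, 34240659 to 34246077) had the highest wild-type FPKM of the 39283 genes listed, 5673. It was 1.81-fold above the next gene, which had 3135, and 4.89-fold above bx5. In the group labelled fdl1-Mu the table lists 0 for it, with the status HIDATA that Cuffdiff gives to a locus with too many fragments to be quantified. It is the 1 gene of the table with this status. The status is given per gene and not per group, so the wild-type value, its rank and its ratios to other genes may be affected too. The listed 0 is thus no measurement, so that neither a level in the group labelled fdl1-Mu nor a ratio was given for glu1.

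**Figure D3:**
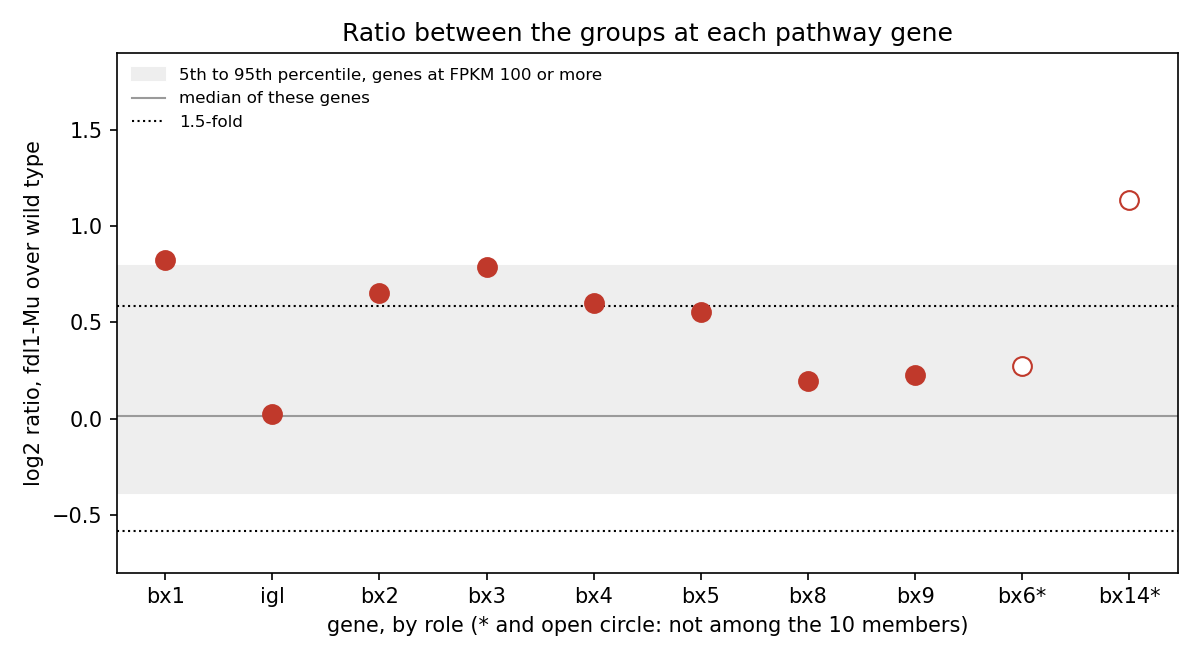
Log2 ratio of the group labelled fdl1-Mu over wild type for the members with values in both groups (filled circles) and for bx6 and bx14 (open circles), ordered by role. The band spans the 5th to 95th percentile of the 1267 abundant genes, dotted lines mark 1.5-fold, and bx1 lies above the band while bx8, bx9 and bx6 lie at 0.27 or less; igl and bx14 did not reach this abundance, so the band does not apply to them.

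Other genes of the pathway were looked up by symbol in RefSeq. Of 7 further benzoxazinoid symbols, 3 matched a listed gene, bx6, bx14 and glu2, and bx10, bx11, bx12 and bx13 did not. The dioxygenase gene bx6 (GRMZM6G617209), which acts on the glucoside made by BX8 and BX9, was as abundant as the top P450 genes. Its FPKM was 1526 in the group labelled fdl1-Mu and 1264 in wild type, a ratio of 1.21. That ratio lay nearer to those of bx8 and bx9 than to those of bx1 to bx5. With bx6 counted in, 6 bx genes (bx1 to bx6) were among the 100 most abundant genes in the group labelled fdl1-Mu. In wild type there were 3, bx3, bx5 and bx6, in a ranking that also held glu1, which has no mutant value.

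Of these 3 matched genes, bx14 (GRMZM2G127418) had the highest ratio. It encodes an O-methyltransferase that modifies benzoxazinoid glucosides, and its FPKM was 24.97 in the group labelled fdl1-Mu and 11.4 in wild type, a ratio of 2.19. Among genes that reached an FPKM of 10 in 1 group or both, the 95th percentile of the ratio was 1.64. The level of bx14 was low beside those of bx1 to bx6. The glucosidase gene glu2 (GRMZM2G008247) was close to 0, at 0.0340 in the group labelled fdl1-Mu and 0.0424 in wild type.

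For tryptophan synthesis, which shares indole-3-glycerol phosphate with the benzoxazinoid pathway, 2 of 12 symbols matched a gene that could be used. These were tsb1 (GRMZM2G169593) and tsb2 (GRMZM2G005024), which encode the tryptophan synthase β subunit. The FPKM of tsb1 was 55.1 in the group labelled fdl1-Mu and 40.9 in wild type, a ratio of 1.35. For tsb2, it was 94.1 in the group labelled fdl1-Mu and 69.9 in wild type, also a ratio of 1.35. Both ratios were smaller than those of bx1 to bx5 and larger than those of bx8 and bx9. Of the 4 genes in these lists that were compared, 1 (bx14) was at least 1.5-fold higher and none as much lower. Over all genes compared, these shares were 11.7% and 5.33%. The median log2 ratio of the 4 genes was 0.43. The symbols tsa1, igps1, igps2, igps3, asa1, asb1, as1, trpa1 and trpa2 matched no gene, and as2 named a gene of another family.

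Maize is known for carrying most of its benzoxazinoid genes in a cluster on the short arm of chromosome 4. In the table, 6 members lay there within 264 kb, from 3003162 to 3267368, in the order bx3, bx4, bx5, bx8, bx1 and bx2. The cluster was taken here as the members within 1 Mb of bx1, so bx6, not a member, could not count in it. The genes bx1 and bx2, for consecutive steps, were 2.21 kb apart, whereas 44.2 to 99.1 kb separated the other neighbours. No member's locus overlapped another listed gene. Inside the cluster 2 other genes were listed, at 1 shared locus and both at an FPKM of 0 in both groups. Of the cluster members, bx1 to bx5 had ratios of 1.47 to 1.77, while bx8, between bx5 and bx1, had 1.15. Of the pathway genes outside it, bx9 on chromosome 1 had a ratio of 1.17. On chromosome 4 but 1.75 Mb away from the cluster, bx6 had 1.21. On chromosome 2, bx14 had 2.19, above every cluster member. Also on chromosome 1, igl had 1.02 and the second Igl gene 4.68, both between low values. Whether position in the cluster goes with the ratio was not tested.

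Within the cluster and 250 kb to either side, 28 genes that are not members were listed, 11 of which were compared. Their median log2 ratio was 0.09, and their FPKM reached at most 50.3. Of the 11, 2 were at least 1.5-fold higher and none as much lower, against 11.7% and 5.33% of all genes compared. One was GRMZM2G139828, with 14.6 in the group labelled fdl1-Mu and 8.81 in wild type, and the other was GRMZM2G062160, with 1.65 in the group labelled fdl1-Mu and 0.665 in wild type. Both lay beyond the bx3 end, with GRMZM2G139872, at a ratio of 1.07, between them. The most abundant neighbour, GRMZM2G126453, had 50.3 in the group labelled fdl1-Mu and 48.7 in wild type.

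**Figure D4:**
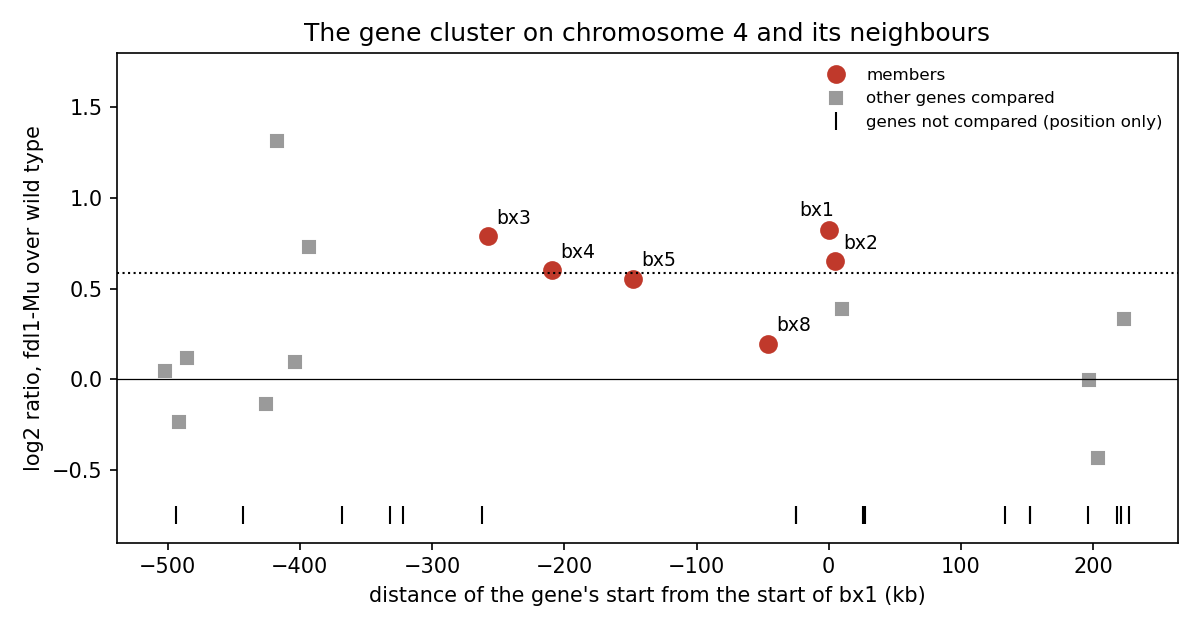
Log2 ratio of the group labelled fdl1-Mu over wild type against the distance of each gene's start from that of bx1 (kb) for 6 members (red circles) and 11 other genes compared (grey squares), with ticks for genes listed but not compared. The dotted line marks 1.5-fold, bx8 sits lowest of the members, and the neighbours scatter about 0 except for 2 genes beyond bx3.

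Directions rest on the group labels, and the mutated gene itself did not have fewer transcripts under the mutant label. FDL1 (GRMZM2G056407) stood at an FPKM of 12.7 in the group labelled fdl1-Mu and 4.58 in wild type, a ratio of 2.78. Whether these FDL1 transcripts held the transposon cannot be read from a value for the gene as a whole. Markers of other tissues that a tip could hold ranged from 0 to an FPKM of 27.8. For green leaf, 7 genes found by 4 of 6 symbols summed to an FPKM of 50.7 in the group labelled fdl1-Mu and 58.1 in wild type, and they went both ways. The Rubisco small subunit gene ssu1 had 4.41 in the group labelled fdl1-Mu and 1.88 in wild type. Of 3 genes that carry the name pdk1, GRMZM2G306345 had 7.43 in the group labelled fdl1-Mu and 16.2 in wild type. GRMZM2G097821 had 25.3 in the group labelled fdl1-Mu and 27.8 in wild type. The third, GRMZM2G107196, went the other way, with 8.06 in the group labelled fdl1-Mu and 6.23 in wild type. The leaf gene for phosphoenolpyruvate carboxylase, pep1 (GRMZM2G083841), was near 0, at 0.0603 in the group labelled fdl1-Mu and 0.0251 in wild type. Another gene under the name pep1, GRMZM5G899080, had 1.16 in the group labelled fdl1-Mu and 1.18 in wild type. For endosperm, 5 genes summed to 9.96 in the group labelled fdl1-Mu and 11.4 in wild type, with fl2 and o2 at 0 in both and most of the sum from bt2, which had 7.81 in the group labelled fdl1-Mu and 8.59 in wild type. Their part in the ratios of the bx genes was not tested. No marker of the coleoptile itself was checked. In tissue samples of this kind, more cells of a type and more RNA per cell cannot be told apart.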

How the data were processed

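According to the paper's methods and the submitters' processing notes, stranded mRNA libraries of 3 fdl1-Mu and 3 wild-type samples were trimmed with Trimmomatic, mapped to B73v3 with TopHat2 2.1.1 and compared with Cuffdiff. Both groups were W22 and the reference was B73. The annotation and Cuffdiff version are not given in the sources used here. The authors deposited 1 table with a pooled FPKM value per gene and group. Its test statistic, p-values, q-values, significance calls and log2 ratios are the authors' own comparison and were not used.

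Ratios of the FPKM values were computed without a pseudocount, with Python 3.11.15, numpy 2.4.6, pandas 2.3.3 and matplotlib 3.10.9, for genes with status OK, above 0 in both groups and reaching an FPKM of 1 in at least 1 of them. Of 39283 genes, 23139 had status OK. Positions are given with the first base as 1, so 1 was added to each deposited start. Depth is unknown: among 839 genes under 0.05 FPKM, ratios showed no separate steps of whole reads (the fullest of 60 bins held 5.84%). Transcripts of closely related genes, such as bx8 and bx9 or the P450 genes, could share reads.

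The named genes are the members, other pathway genes with a symbol match in RefSeq (Zm-B73-REFERENCE-NAM-5.0, used for names only, which matched 48.4% of listed identifiers), FDL1, and neighbours of the cluster. The second Igl gene was added after its values were seen. The members and lists were chosen with earlier results of these data known. The code was checked on inputs with known answers. Alternatives were pseudocounts of 0.1 and 1, other scalings, other FPKM minimums, the 2-fold threshold and leaving out overlapping loci.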

Additional observations from a re-analysis of the deposited data

How the results depend on the processing

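With 1 pooled value per group, no replicate could be left out and no count model run. No paired analysis was possible because the table holds no values per replicate. The count of members at least 1.5-fold different, 4 of 7, was 4 with pseudocounts of 0.1 and 1, and 3 with each of 3 rescalings, under which bx4 fell below the threshold. It was 0 at 2-fold. The median log2 ratio of the members, 0.60, was 0.58 when centred on the median gene, 0.56 when scaled to the same sum over genes compared, and 0.56 when the 1000 most abundant genes were left out of that sum. These rescalings subtract 0.02 to 0.04 on the log2 scale from every gene. No member's locus overlapped another, so leaving out overlapping loci removed none. Of 40 alternative log2 ratios of single members, 37 stayed on their side of 1.5-fold and within 0.1 of the deposited value, and the other 3 were those of bx4. The share of all genes past 1.5-fold in either direction, 17.03%, was 10.8% with a pseudocount of 1, 10.1% at a minimum FPKM of 10, 11.1% at a minimum of 100 and 5.97% at 2-fold. Of the other pathway genes, 1 passed under both pseudocounts, the 3 rescalings and the 2-fold threshold, and of the cluster neighbours 2 did under the same settings, except for 1 at 2-fold. These counts were not recomputed under other FPKM minimums or without overlapping loci. The depth behind low values, such as those of igl, glu2 and the second Igl gene, is unknown.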
